A study of Mus musculus with 7 samples.

Results

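The genes described here encode the proteins of the cytosolic ribosome, measured in mouse heart. They were taken by name: every probe set annotated to exactly 1 gene symbol that begins with Rpl or Rps and a digit, together with Rpsa, Rplp0, Rplp1, Rplp2 and Fau, without the Rps6 kinases and without pseudogenes. This gave 101 of the 22626 probe sets of the array, for 49 genes. A probe set is a group of short probes whose signals are summarised into 1 value for a transcript. The hearts came from male C57/BL6 mice of 3 to 4 months, all fasted for 18 h, and the groups were wild type (WT, 4 arrays) and KLF15-null (3 arrays). KLF15 is a Krüppel-like zinc finger transcription factor with known roles in the fasting metabolism of heart, liver and skeletal muscle. The labels give the null genotype only as such and do not say which part of the gene was deleted. All values are log2 signals as deposited, so a difference of 1 is a doubling, and every difference is KLF15-null minus WT.

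The ribosome consists of a large and a small subunit, each built from ribosomal RNA and a set of proteins that are named Rpl or Rps after their subunit. Rplp0, Rplp1 and Rplp2 form the stalk of the large subunit, on which elongation factors are recruited. Most of these proteins are made in every cell from abundant mRNAs that begin with a C and a run of pyrimidines, the 5′ terminal oligopyrimidine (TOP) tract, through which mTORC1 signalling and LARP1 control their translation when nutrients are short. A few members have paralogs with restricted expression, such as Rpl3l, which takes the place of Rpl3 in heart and skeletal muscle.

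The arrays as a whole set the limits of what follows. On the Klf15 probe set the WT arrays averaged 8.87 ± 0.19 (SD, n = 4) and the KLF15-null arrays 6.33 ± 0.17 (SD, n = 3), which differ by -2.54 (SE 0.13, limma adjusted p = 1.26e-06). An exact two-sided permutation test of Klf15 over the 35 splits of the arrays gave p = 0.0286, the smallest this design allows. Array medians lay between 6.22 and 6.33, but the 98th percentile of signal was 11.43 to 11.74 on WT and 11.86 to 12.02 on KLF15-null arrays. KLF15-null array 2 correlated with the other KLF15-null arrays at 0.986 and 0.990 over all probe sets, below the 0.995 to 0.997 among WT arrays. All arrays are labelled male, yet the brightest Xist probe set read 8.57 to 9.94 on the 7 arrays, at percentile 91.4 of all probe sets, and 7 probe sets of Y-linked genes lay no higher than percentile 27.3. The label and these signals therefore disagree on all 7 arrays. The labels do not say that each array is a separate animal, so p-values measure the spread between these samples, which may be technical.

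Marker genes of cell types in the tissue were read beside these genes. The 8 cardiomyocyte markers had a summed signal of 16.36 to 16.56 on WT and 16.53 to 16.70 on KLF15-null arrays. None of them fell below the filter on dim probe sets, and 1 of the 8, Nppa (difference 1.71), was higher and 0 lower. Macrophage and monocyte markers summed to 10.97 to 11.61 on WT and 11.95 to 12.48 on KLF15-null arrays, with 4 of 6 tested higher. Over all 8321 genes tested, 25.5% were higher and 20.4% lower, which stand beside the marker counts given here. Neutrophil markers summed to 8.04 to 8.68 on WT and 9.75 to 11.22 on KLF15-null arrays, with 3 of 5 higher. Among these 3, Lcn2 had a WT mean of 5.62, below the filter level of 5.74. It was tested only because its KLF15-null arrays were high. Endothelial markers summed to 10.60 to 10.92 on WT and 9.77 to 10.58 on KLF15-null arrays, with 3 of 5 lower. Fibroblast markers summed to 11.99 to 12.75 on WT and 11.69 to 11.75 on KLF15-null arrays, and smooth muscle and pericyte markers to 12.66 to 13.23 and 13.31 to 13.49, each with 1 marker higher and 1 lower. The cardiomyocyte sums overlapped between the groups and the sums of the other 5 lists above did not. Lymphocyte sums (8.11 to 8.39 on WT, 8.17 to 8.35 on KLF15-null arrays) and erythroid sums (7.74 to 9.01, 8.02 to 8.22) also overlapped. So did lung epithelium sums (7.35 to 7.50, 7.29 to 7.64) and proliferation sums (7.75 to 8.27, 7.98 to 8.13). Over all single genes tested, 48.7% did not overlap between the groups. Whether these cell types have a part in the ribosomal protein signals was not tested, and in whole tissue fewer cells of a type and less RNA per cell cannot be told apart.

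The transcription starts of the members were searched for the TOP tract. RefSeq (GRCm38.p6) listed 51 starts for 43 of the 49 genes. A TOP tract, taken as a C at the first transcribed base followed on the transcribed strand by at least 4 C or T, stood at 9 of these starts (17.6%), against 2.51% of all 32851 starts. Allowing the tract to begin within 10 bases on either side gave 29 starts (56.9%), against 30.7% of all starts. The sequences below run from 10 bases before the start to 20 bases from it, with the tract in capitals. On the probe set used for each gene, genes which rose (Rps6, Rplp2, Rps18, Rpl35) and genes which did not pass the test (Rps10, Fau) both include carriers of the tract. Of the 6 tested probe sets of Rps10, however, 3 were called higher, 1 of them outside the _x_at class. The first of the 2 listed starts of Rpl3l is shown as an example without a tract at the first base. In all, 34 of the 43 genes had none at that base, Rpsa among them. Since 29 of the 51 starts had a tract within 10 bases, its absence at the listed base does not show that an mRNA lacks it.
Rps6, chr4:86857348-86857377, minus strand: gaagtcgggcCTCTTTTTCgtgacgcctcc
Rplp2, chr7:141447641-141447670, plus strand: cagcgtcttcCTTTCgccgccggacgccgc
Rps18, chr17:33955646-33955675, minus strand: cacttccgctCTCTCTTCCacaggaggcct
Rpl35, chr2:39005112-39005141, minus strand: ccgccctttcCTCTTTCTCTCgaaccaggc
Rps10, chr17:27635225-27635254, minus strand: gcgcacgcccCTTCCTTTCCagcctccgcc
Fau, chr19:6057937-6057966, plus strand: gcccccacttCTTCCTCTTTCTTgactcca
Rpl3l, chr17:24727816-24727845, plus strand: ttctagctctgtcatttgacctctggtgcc
Of the 7 tested genes with a tract at the first base, 4 were higher and 3 did not pass the test (median difference 0.48). Of the 30 tested genes with a listed start and no tract there, 19 were higher and 11 did not pass (median 0.42). The motif CACCC, a core of the sites that Krüppel-like factors bind, occurred on either strand (CACCC or GGGTG) in the 250 bases before 24 of the 51 starts (47.1%), against 52.0% of all starts.

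Ribosomal protein mRNAs read higher in KLF15-null hearts on the deposited scale, but that direction held for only some of the genes under other scalings of the arrays. Of the 40 genes with a tested probe set outside the cross-hybridizing _x_at class, 24 were higher, 0 were lower and 16 did not pass the test (limma, adjusted p threshold 0.05), with a median difference of 0.42 and a range of -0.41 to 1.37. Over all 8321 genes tested the same way, 25.5% were higher and 20.4% lower, with a median of 0.01. After quantile normalization 15 of the 40 were higher and 8 lower (median 0.10), and after cyclic loess 16 were higher and 6 lower (median 0.12). The medians of all tested probe sets were then 0.019 and -0.0022. The shares of all genes called under these 2 scalings are not given, so the rescaled counts have no such share beside them. The KLF15-null arrays did not overlap the WT arrays in 22 of the 40 genes, all 22 above WT, where 48.7% of all genes did not overlap in either direction. The other 9 genes comprised 7 with a tested _x_at probe set only (Rpl37, Rpl38, Rpl41, Rps2, Rps14, Rps20 and Rps29) and 2, Rpl14 and Rpl39l, with none above the filter on dim probe sets. Counted by probe set, 85 of the 101 were tested, 55 were higher and 0 lower, against 26.8% higher and 23.8% lower of all 13576 tested, and in 53 of the 85 the groups did not overlap, against 53% of all tested.

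**Figure D1:**
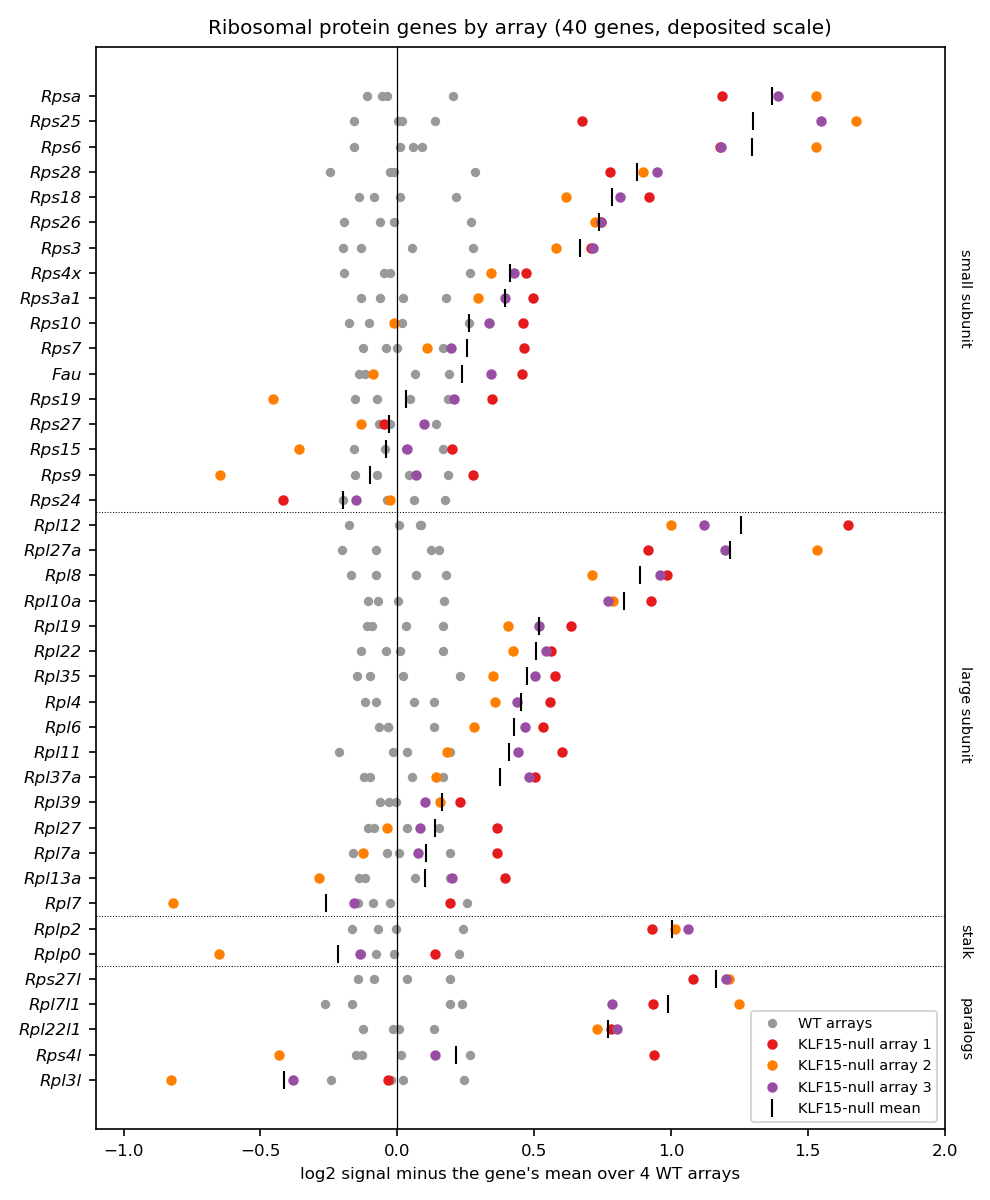
Log2 signal of each of 40 ribosomal protein genes on each array, minus that gene's mean over the 4 WT arrays, on the deposited scale; grey points are WT arrays, coloured points the 3 KLF15-null arrays, and black bars their mean. The genes run from Rpsa at 1.37 to Rpl3l at -0.41, 24 are called higher here but 15 after quantile normalization, and KLF15-null array 2 is the lowest of its group in 29 of 40 genes.

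The small subunit had 17 genes tested, of which 9 were higher (median 0.39). On the brightest tested probe set of each gene outside the _x_at class, Rpsa showed the largest difference of the 40 genes. Other probe sets of Rpl13a (1.74), Rps9 (_x_at, 1.68) and Rpl27 (1.59) differed by more. Rpsa is a small subunit protein that is also known as the laminin receptor. Its signal was 11.28, 11.30, 11.54 and 11.22 on the WT arrays and 12.52, 12.86 and 12.73 on the KLF15-null arrays, a difference of 1.37 (2.58-fold, SE 0.12, adjusted p = 2.03e-05). The groups were apart, with each KLF15-null array above the highest WT array. Rps6, the substrate of the S6 kinases downstream of mTORC1, read 7.23, 7.28, 7.31 and 7.06 in WT and 8.40, 8.75 and 8.41 in KLF15-null hearts, which differ by 1.30 (SE 0.12, adjusted p = 2.20e-05). Here too the groups did not overlap, with KLF15-null array 2 the highest. The probe sets of Rps6, Rps25, Rpl12 and Rpl27a, all among the largest rises, were dim for this set of genes. They lay at percentiles 74.1, 62.8, 49.2 and 67.1 of signal, against a median of 97.8 over the 40 genes.

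Rps25, a protein of the small subunit head, read 6.50, 6.34, 6.51 and 6.64 in WT and 7.17, 8.17 and 8.04 in KLF15-null hearts, which differ by 1.30 (SE 0.21, adjusted p = 0.000703). Here KLF15-null array 1 was closer to WT than to the other KLF15-null arrays, although it did not overlap the WT range. Rps28 read 11.99, 12.23, 12.52 and 12.21 in WT and 13.02, 13.14 and 13.19 in KLF15-null hearts, which differ by 0.87 (SE 0.13, adjusted p = 0.000377). The lowest KLF15-null array of Rps28 stood above the highest WT array. Rps18, Rps26 and Rps3, the last of which lies at the mRNA entry site, were higher by 0.78, 0.74 and 0.67, and Rps4x and Rps3a1 by 0.41 and 0.39.

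The other 8 small subunit genes did not pass the test. Rps19, the gene most often mutated in Diamond-Blackfan anaemia, read 10.80, 11.00, 11.14 and 10.88 in WT and 11.30, 10.50 and 11.16 in KLF15-null hearts, which differ by 0.03 (SE 0.19, adjusted p = 0.899). Its KLF15-null arrays spanned the whole WT range, with array 2 below it and arrays 1 and 3 above. Fau, which encodes Rps30 fused to a ubiquitin-like protein, read 11.37, 11.57, 11.69 and 11.39 in WT and 11.96, 11.41 and 11.84 in KLF15-null hearts, which differ by 0.24 (SE 0.15, adjusted p = 0.217). Only array 2 overlapped WT, and without it the difference in Fau was 0.40 (adjusted p = 0.0255). The differences of Rps10, Rps7, Rps27, Rps15, Rps9 and Rps24 were 0.26, 0.26, -0.03, -0.04, -0.10 and -0.20. The value of Rps24 came from a dim probe set at percentile 48.2, and another of its probe sets, at percentile 47.7, was higher by 0.95 (adjusted p = 7.29e-05). A second probe set of Rps15 was higher by 0.46 (adjusted p = 0.00324).

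In the large subunit 11 of 16 genes were higher (median 0.44). Rpl12, a protein at the base of the stalk, read 5.80, 5.80, 5.72 and 5.54 in WT and 7.36, 6.71 and 6.83 in KLF15-null hearts, which differ by 1.26 (SE 0.15, adjusted p = 9.91e-05). Rpl27a read 6.59, 6.72, 6.92 and 6.95 in WT and 7.71, 8.33 and 7.99 in KLF15-null hearts, which differ by 1.22 (SE 0.15, adjusted p = 0.000137). Both genes were above every WT array on all 3 KLF15-null arrays. The array that stood highest differed, array 1 for Rpl12 and array 2 for Rpl27a. The WT mean of Rpl12, 5.71, lay below the filter level of 5.74. Rpl12, counted among the 11, was thus tested only because its KLF15-null arrays were high. With no filter it was called higher as well (limma adjusted p = 0.00016). Rpl8 read 10.87, 11.11, 11.22 and 10.96 in WT and 12.02, 11.75 and 12.00 in KLF15-null hearts, which differ by 0.89 (SE 0.12, adjusted p = 0.000279). Its groups were apart as well.

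Rpl10a was higher by 0.83, and Rpl19, Rpl22, Rpl35, Rpl4 and Rpl6 by 0.43 to 0.52. Rpl11, which binds and inhibits Mdm2 when ribosome assembly is disturbed, read 11.17, 11.42, 11.57 and 11.37 in WT and 11.98, 11.56 and 11.82 in KLF15-null hearts, which differ by 0.41 (SE 0.14, adjusted p = 0.0311). KLF15-null array 2 fell just below the highest WT array, and the call was lost when WT array 1, 2 or 4 or KLF15-null array 1 or 3 was left out, with differences of 0.31 to 0.42. Rpl37a was higher by 0.38 and also overlapped WT. Rpl39, Rpl27, Rpl7a, Rpl13a and Rpl7 did not pass the test, with differences of 0.16, 0.14, 0.10, 0.10 and -0.26.

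Both stalk genes with a tested probe set were bright. Rplp2 read 11.92, 12.08, 12.32 and 12.01 in WT and 13.01, 13.10 and 13.15 in KLF15-null hearts, which differ by 1.0 (SE 0.11, adjusted p = 8.13e-05). The KLF15-null arrays lay close together and above all WT arrays. Rplp0, often used as a reference gene, read 12.37, 12.49, 12.73 and 12.42 in WT and 12.64, 11.85 and 12.37 in KLF15-null hearts, which differ by -0.22 (SE 0.18, adjusted p = 0.338). Its arrays 1 and 3 lay within or at the edge of the WT range and array 2 below it. Rplp0 passed the test as lower after quantile normalization (-0.57, adjusted p = 0.00717) and cyclic loess (-0.62, adjusted p = 0.00265). The difference between the stalk genes was not tested.

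Of the 5 paralogs tested, 3 were higher (median 0.77). Rps27l, a paralog of Rps27 induced by p53, read 9.30, 9.35, 9.63 and 9.47 in WT and 10.52, 10.65 and 10.64 in KLF15-null hearts, which differ by 1.16 (SE 0.12, adjusted p = 3.63e-05). Rpl7l1 read 7.62, 8.02, 7.98 and 7.52 in WT and 8.72, 9.03 and 8.57 in KLF15-null hearts, which differ by 0.99 (SE 0.16, adjusted p = 0.000678). Rpl22l1, the paralog of Rpl22, read 9.53, 9.66, 9.64 and 9.78 in WT and 10.43, 10.38 and 10.45 in KLF15-null hearts, which differ by 0.77 (SE 0.10, adjusted p = 0.000222). In all 3 the groups were fully apart on the probe set used for the gene. A second probe set of Rpl7l1 differed by 0.23, overlapped WT and did not pass the test (limma adjusted p = 0.217). Rps4l ranged from 7.48 to 7.90 in WT and read 8.57, 7.20 and 7.77 in KLF15-null hearts, so that its KLF15-null arrays fell above, below and within the WT range (difference 0.21, SE 0.27, adjusted p = 0.532).

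Rpl3l had the lowest difference of the 40 genes. It read 10.32, 10.37, 10.59 and 10.10 in WT and 10.31, 9.52 and 9.97 in KLF15-null hearts, which differ by -0.41 (SE 0.19, adjusted p = 0.0951), and the exact two-sided permutation test gave p = 0.143. KLF15-null arrays 2 and 3 lay below all WT arrays, while array 1 lay within their range. Measured from the median of the other 39 genes on the same array, Rpl3l stood at -0.94, -1.05, -1.0 and -1.23 on the WT arrays and at -1.71, -2.01 and -1.90 on the KLF15-null arrays. These offsets did not overlap, and they are given as a description with no test. The median of the other 39 genes itself read 11.26 to 11.59 on WT and 11.53 to 12.02 on KLF15-null arrays. These medians overlapped, with KLF15-null array 2 (11.53) below WT array 3 (11.59). A gene that stayed level would therefore show offsets that are lower on average but overlap. Part of the lower offsets of Rpl3l thus comes from the higher signal of the other genes. Whether the rest is particular to Rpl3l was not tested. Rpl3l passed the test as lower after quantile normalization (-0.69, adjusted p = 0.00301), after cyclic loess (-0.65, adjusted p = 0.00365), and without KLF15-null array 1 (-0.60, adjusted p = 0.0190).

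The brightest probe sets of other genes also read higher on the KLF15-null arrays in the median, though not in every gene. Of the 40 ribosomal protein genes, 25 lay at or above the 97th percentile of signal, a limit chosen after seeing the data. Among these 25, 16 were higher (64%) and 0 lower, with a median difference of 0.41. Among the 331 other genes this bright, 40.2% were higher and 13% lower, with a median of 0.23. The 15 ribosomal protein genes below that limit had a median of 0.51, and 8 of them were higher. The part of this brightness-wide shift in the ribosomal protein values was not tested beyond the scalings given here.

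**Figure D2:**
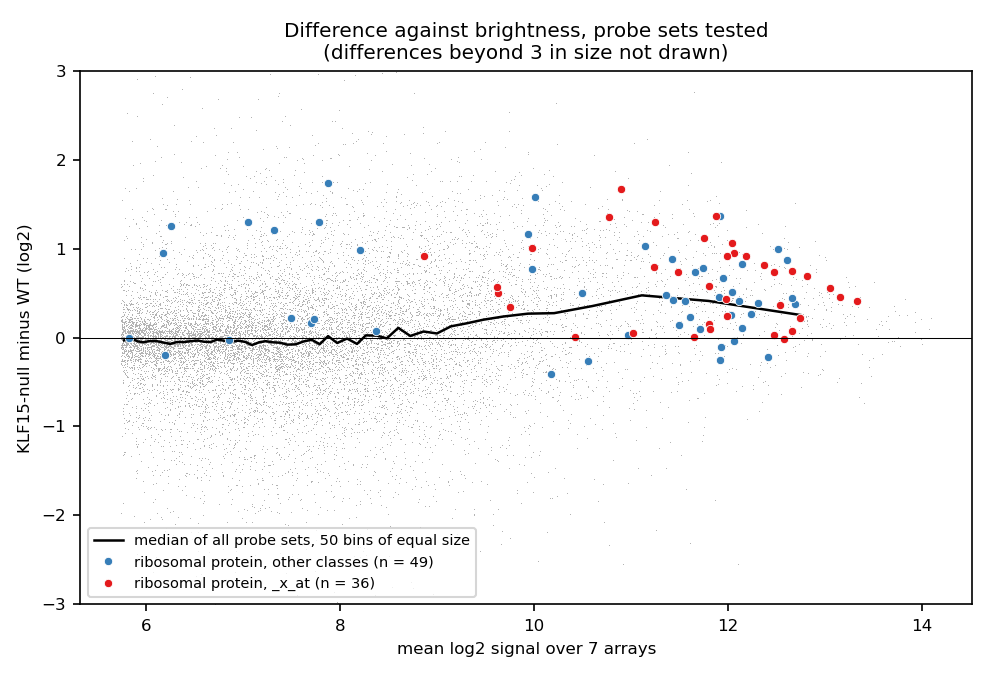
KLF15-null minus WT difference (log2) against mean log2 signal over 7 arrays, 1 point per tested probe set; ribosomal protein probe sets are blue (49, other classes) or red (36, class _x_at), other probe sets grey, and the line is the median in 50 bins of equal size. The line lies near 0 for dim probe sets and above 0 for bright ones, where most ribosomal protein probe sets are found; the differences shown are on the deposited scale, and 6 to 8 of the 40 genes read as lower after quantile normalization or cyclic loess.

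By array, the median of the 40 genes, each taken from its own WT mean, was 0.56, 0.32 and 0.45 on KLF15-null arrays 1, 2 and 3. For the 331 other bright genes it was 0.27, 0.10 and 0.28. KLF15-null array 2 was the lowest of its group in 48 of the 85 tested ribosomal protein probe sets (56.5%) and the highest in 30 (35.3%). In the 561 other probe sets at or above the 97th percentile it was the lowest in 60.8% and the highest in 22.1%, and over all tested probe sets in 45.8% and 34.2%. It fell below all 4 WT arrays in 16 of the 85 (18.8%), against 30.7% of those 561. Without array 2, 26 of the 40 genes were higher and 0 lower, with a median of 0.51.

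Under other scalings of the arrays the 40 genes divided. The 15 genes Rpsa, Rps25, Rps6, Rpl12, Rpl27a, Rps27l, Rplp2, Rpl7l1, Rpl8, Rps28, Rpl10a, Rps18, Rpl22l1, Rps26 and Rps3 were higher as deposited, after quantile normalization, after cyclic loess, and after scaling each array to its other probe sets at or above the 97th percentile, which was chosen after seeing the data. The 9 other genes called higher as deposited (Rpl19, Rpl22, Rpl35, Rpl4, Rpl6, Rps4x, Rpl11, Rps3a1 and Rpl37a) lost that call in at least 1 of the 3 scalings, and 0 of them turned lower. The 6 genes Rpl7a, Rps15, Rps9, Rplp0, Rpl7 and Rpl3l were lower in all 3 scalings and did not pass the test as deposited. Of the 15 genes higher throughout, Rpl12 passed the filter on dim probe sets only through its KLF15-null arrays. Of the genes called, the share called higher was 100% as deposited, 65.2% after quantile normalization and 72.7% after cyclic loess. Scaling to the bright probe sets takes the same amount from every gene: it moved the median difference of all tested probe sets to -0.34 and that of the 40 genes to 0.08, with 15 higher and 8 lower.

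**Figure D3:**
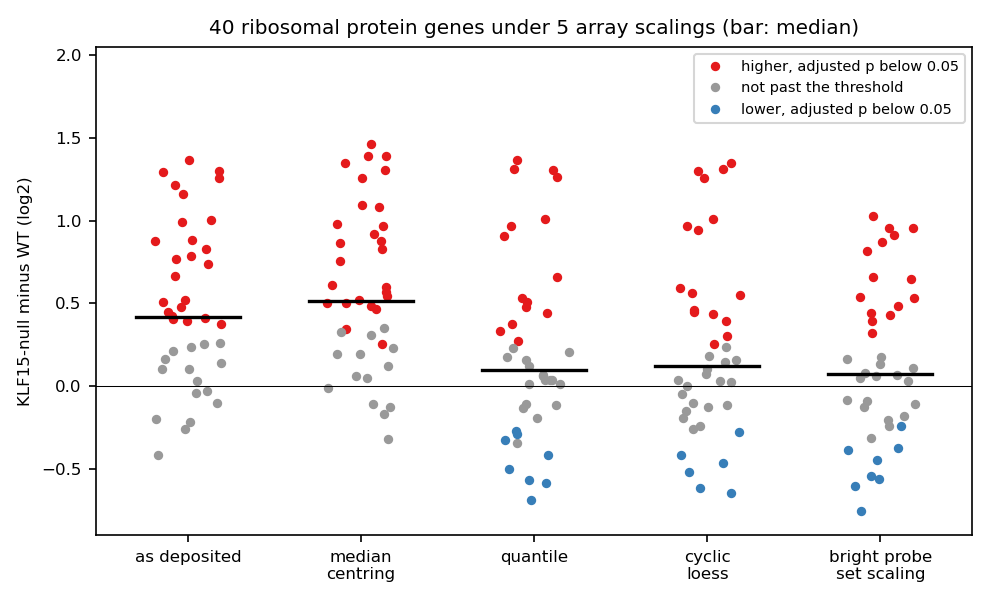
KLF15-null minus WT difference (log2) of the 40 ribosomal protein genes under 5 scalings of the arrays, 1 point per gene, red for higher, blue for lower and grey for not past the threshold; bars are medians. The medians are 0.42 as deposited, 0.51 after median centring, 0.10 after quantile normalization, 0.12 after cyclic loess and 0.08 after scaling to bright probe sets, and genes called lower appear only in the last 3.

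Probe sets of the _x_at class contain probes that may bind other transcripts, and ribosomal protein genes have many processed pseudogenes and near copies, so this class is given apart. Of the 40 such probe sets, 36 were tested, 26 were higher and 0 lower, with a median difference of 0.58 and a range of -0.01 to 1.68. Of all 1074 tested _x_at probe sets, 60.5% were higher and 7.91% lower, with a median of 0.53. Of the 121 other _x_at probe sets at or above the 97th percentile, 69.4% were higher and 3.31% lower, with a median of 0.55. The share of ribosomal protein probe sets called higher in this class was thus near that of other _x_at probe sets. Quantile normalization gave 22 higher and 6 lower, and cyclic loess 20 and 6, without the matching shares of other _x_at probe sets.

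In the genes measured by this class alone the differences ran from -0.01 to 1.07. Rps20 had differences of 1.07 and 0.92 in its 2 probe sets, Rpl38 of 0.69, Rpl37 of 0.50, Rps29 of 0.41 to 0.56 in 3, and Rpl41 of 0.37 and 0.44 in 2, all called higher. Rps2 (0.07) and both probe sets of Rps14 (-0.01 and 0.03) did not pass the test. A further 102 probe sets were annotated to a ribosomal protein gene together with at least 1 other gene. Of the 90 tested, 75 were higher and 0 lower (median 0.64), against 26.8% higher and 23.8% lower of all 13576 tested probe sets. They were counted on the deposited scale only and not split by class, and of all tested _x_at probe sets 60.5% were higher. Because they cannot be assigned to 1 gene they are not named. Rpl3, Rpl5, Rplp1 and Rps27a have no probe set annotated to them alone, so no value is given for them.

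Probe sets of the same gene often differed. In the 19 genes with at least 2 tested probe sets of any class, the range between them had a median of 0.50, reached 0.5 in 10 genes and 1 in 5. Other genes with at least 2 tested probe sets (2729) had a median range of 0.83, and 66.7% of them reached 0.5. In 7 of the 19 genes every probe set was higher, in 9 some were higher and some did not pass, in 3 none passed, and in 0 were probe sets called in both directions. Rps9 differed by -0.10 in its brighter probe set and by 1.68 in its _x_at probe set. Rpl13a ranged from 0.10 to 1.74, Rpl27 from 0.14 to 1.59, and the 6 probe sets of Rps10 from -0.25 to 1.03, with 3 of the 6 called higher. All 5 probe sets of Rpl35 were higher, by 0.48 to 1.37.

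**Figure D4:**
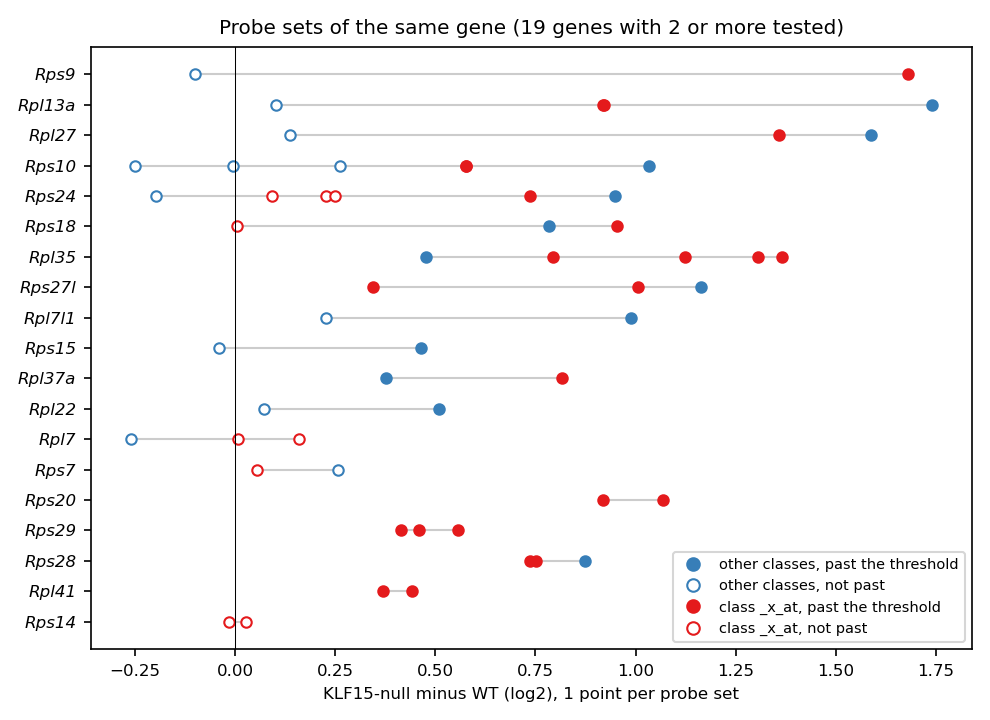
KLF15-null minus WT difference (log2, deposited scale) of every tested probe set in the 19 ribosomal protein genes with at least 2; blue points are other classes, red points class _x_at, and filled points passed the test. The widest gap is in Rps9, from -0.10 to 1.68, and filled and open points stand in the same row in 9 genes.

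Genes that build or regulate ribosomes were compared from lists, whose counts as deposited stand beside 25.5% higher and 20.4% lower over all 8321 genes. The shares of all genes under other scalings are not given. Of 55 tested ribosome assembly factors, 30 were higher and 1, Rrp1b, was lower, with a median difference of 0.39. Quantile normalization gave 33 higher and 4 lower (median 0.38), and cyclic loess 31 and 3 (median 0.37). Wdr75, a component of the small subunit processome, read 5.96, 6.03, 6.10 and 5.94 in WT and 7.74, 8.23 and 7.77 in KLF15-null hearts, which differ by 1.90 (SE 0.12, adjusted p = 3.76e-06). Gnl3, the GTPase nucleostemin, read 7.92, 8.09, 7.95 and 7.70 in WT and 9.79, 9.76 and 9.57 in KLF15-null hearts, which differ by 1.79 (SE 0.12, adjusted p = 4.53e-06). Neither gene overlapped between the groups. Heatr1, which acts in pre-rRNA transcription and processing, was higher by 1.41. Nop56, a core protein of box C/D small nucleolar particles, was higher by 1.62 in its brighter probe set, while its other probe set differed by -0.02 and did not pass the test. With any 1 of the 3 KLF15-null arrays left out, that other probe set was the brighter and Nop56 differed by -0.086, 0.059 and -0.021, all not past the test.

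RNA polymerase I transcribes the large ribosomal RNA precursor. The list of its subunits and factors had 5 of 10 tested genes higher and 0 lower (median 0.30). It had 5 higher and 1 lower after quantile normalization (median 0.35) and again after cyclic loess (median 0.35). Polr1c and Polr1d, subunits shared with RNA polymerase III, were higher by 1.07 and 0.71, and the TBP-associated factors Taf1a and Taf1c by 0.55 and 0.43. Znrd1 was also called higher (0.56). Polr1a (-0.20), Polr1b (-0.23), Ttf1 (-0.15), Ubtf (-0.09) and Rrn3 (0.17) did not pass the test. The second probe sets of Polr1c (0.23) and Polr1d (-0.29) did not pass the test.

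Elongation factors and other genes with TOP mRNAs, 16 tested, had 6 higher and 3 lower (median 0.07). Eef1b2, the exchange factor of elongation factor 1, read 10.48, 10.63, 10.90 and 10.62 in WT and 11.84, 12.10 and 12.07 in KLF15-null hearts, which differ by 1.35 (SE 0.13, adjusted p = 2.87e-05). Its groups did not overlap. Hnrnpa1 was higher by 1.51, Npm1 by 0.82 and Eef1d by 0.58, the last losing its call after quantile normalization (0.23, adjusted p = 0.0731), while Pabpc1, Eif4a2 and Eef2 were the 3 called lower. A second probe set of Npm1 was called the other way (-1.01, adjusted p = 0.00442). Hnrnpa1 had an _x_at probe set at -0.20 and Eef1d a dim one at 0.08, both not past the test, and the _x_at probe set of Eef1d was higher by 1.90. After quantile normalization 4 of the 16 were higher and 9 lower (median -0.32), and leaving out 1 array at a time gave 1 lower (without WT array 4 or KLF15-null array 2) to 5 lower (without KLF15-null array 1).

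Of 12 tested regulators of ribosomal protein synthesis, 4 were higher and 4 lower (median 0.05). Quantile normalization gave 3 higher and 5 lower (median -0.16), cyclic loess 3 and 4 (median -0.077), and leaving out WT array 1 or KLF15-null array 3 gave 2 higher. Myc, a transcription factor that activates ribosome production genes, was higher by 0.97 (adjusted p = 0.000345) and Mycn was lower, with a difference of -0.50 (adjusted p = 0.000691). Tsc2, which holds mTORC1 inactive, read 8.96, 8.84, 9.12 and 8.65 in WT and 7.74, 7.06 and 7.48 in KLF15-null hearts, which differ by -1.47 (SE 0.17, adjusted p = 8.45e-05). Tsc2 was below WT on every KLF15-null array. Rps6kb2, an S6 kinase, was lower, with a difference of -0.79, and Larp1, Mtor and Rheb were the other 3 called higher.

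The mitochondrial ribosome is a separate particle whose proteins are encoded by other nuclear genes. Of its 74 tested genes 20 were higher and 10 lower, with a median difference of 0.08, a count of higher genes near the 25.5% over all genes. After quantile normalization 14 were higher and 23 lower. Mrps24 and Mrpl33 were higher by 1.46 and 1.07. Mrps24 has 2 probe sets of nearly the same mean signal, 9.82 for the one used here and 9.81 for the other. In the one used here the KLF15-null arrays (10.30, 10.78 and 10.88) all lay above WT (9.06 to 9.39). The other stood for the gene after quantile normalization (0.10, adjusted p = 0.636) and without KLF15-null array 1 (0.22, adjusted p = 0.451) or 3 (0.16, adjusted p = 0.587). The call of Mrps24 was lost in these settings through that change of probe set. Mrpl50 and Mrps11 were lower, with differences of -1.03 and -0.64. The second probe sets of Mrps24 (0.34), Mrpl33 (-0.16) and Mrpl50 (0.19) did not pass the test. Without KLF15-null array 2 the mitochondrial list had 30 higher and 7 lower. The difference between the mitochondrial and the cytosolic set was not tested. Scaling to the bright probe sets moves every difference by the same -0.34, so its counts shift by construction: higher and lower were then 17 and 9 among assembly factors, 2 and 4 in the RNA polymerase I list, 3 and 9 among elongation factors and other TOP mRNAs, 1 and 5 among regulators, and 8 and 34 among mitochondrial ribosomal proteins.

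**Figure D5:**
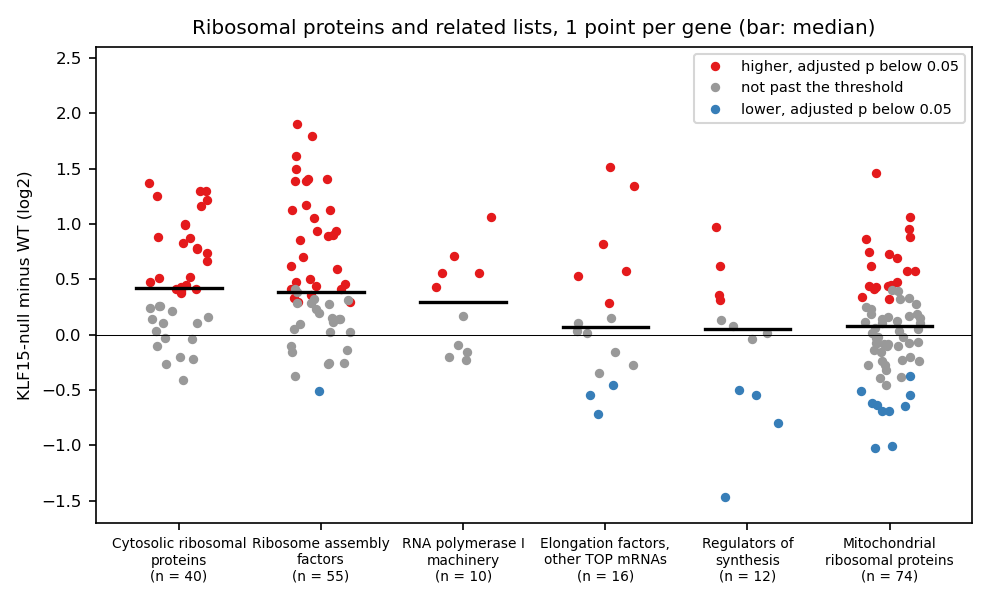
KLF15-null minus WT difference (log2, deposited scale) per gene for cytosolic ribosomal proteins and 5 related lists, red for higher, blue for lower and grey for not past the threshold; bars are medians. Medians are 0.42 for the cytosolic set, 0.39 for assembly factors, 0.30 for the RNA polymerase I machinery and 0.05 to 0.08 for the other 3 lists, and after quantile normalization the cytosolic median is 0.10 with 8 genes lower.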

How the data were processed

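Total RNA of heart tissue, 7 samples, was labelled by one-cycle 3′ amplification and hybridized to Affymetrix arrays, per the labels' protocols. The authors deposited log2 signal values per probe set; the submitters' processing notes name GCOS, and how probes were summarized or arrays scaled is not stated in them. The deposited values were used without further scaling. Probe sets were named from the platform annotation through Entrez numbers, which RefSeq held for all 101 ribosomal protein probe sets. The 13576 probe sets whose 7-array mean reached the 40th percentile (log2 5.74) were tested, and limma 3.58.1 (R 4.3.3) was fitted to them with an intensity trend and Benjamini-Hochberg adjustment over all of them. A gene took its brightest tested probe set that was not _x_at. Named genes were the 10 largest rises past the threshold, the stalk, Rpsa, Fau, Rps6, Rpl11, Rps19, the paralogs, and up to 4 genes of each related list by smallest p; other members are given with their difference only, and Rps9, Rpl13a, Rpl27, Rps10, Rps15, Rps24, Rpl35 and the array-2 counts were singled out after their values were seen. The members and lists were chosen with earlier results of these data known. The fit was tested on simulated data. Alternatives covered normalization, filter, probe set choice, array weights, threshold, a replicate block and each array left out. The number of arrays limits the precision.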

Additional observations from a re-analysis of the deposited data

Results flagged for a closer look

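In 1 of the 40 ribosomal protein genes a WT array stood apart from the other WT arrays. Rpl6, a large subunit protein, read 11.18, 11.21, 11.21 and 11.38 in WT, and the gap between the highest array and the next, divided by the whole range, was 0.833 (Dixon's ratio, past its 95% critical value for 4 samples). Chance alone flags about 1 in 20 such groups, and 40 were examined. Rpl6 was called higher with all arrays (0.43, limma adjusted p = 0.00845).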

How the results depend on the processing

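The lower calls and the size of the rise depended on how the arrays were scaled; the cause was not tested. As deposited, 24 of 40 genes were higher and 0 lower (median 0.42). Quantile normalization gave 15 higher, 8 lower, a median of 0.10, 6 lower _x_at probe sets and an Rpl3l difference of -0.69. Cyclic loess gave 6 lower, a median of 0.12, 6 lower _x_at probe sets and -0.65 for Rpl3l. Scaling to bright probe sets, chosen after seeing the data, gave 15 higher, 8 lower, a median of 0.076, 7 lower _x_at probe sets and -0.76 for Rpl3l. Array weights gave 1 lower gene, Rpl3l (-0.36), as did a threshold of 0.1 (-0.41). Leaving out 1 array at a time gave 20 to 26 higher and 0 to 1 lower genes, medians of 0.38 to 0.51, 25 to 28 higher and 0 lower _x_at probe sets, and Rpl3l differences of -0.60 to -0.21. The Nop56 difference turned to -0.016 with the probe set brightest in WT; leaving out 1 array at a time gave -0.086 to 1.65, with -0.086 and -0.021 without KLF15-null array 1 or 3. The Npm1 difference turned to -0.093 as the mean of its probe sets. With the replicate block 20 genes were higher and 0 lower (median 0.41), but same-numbered arrays deviated together by correlations of only -0.11, 0.00 and 0.19, so the numbers do not pair the samples. The planned difference between Rpl3l and Rpl3 was not run, because no probe set is annotated to Rpl3 alone.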
